A study of Homo sapiens with 18 samples.

Results

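REH is an established cell line grown from a leukemia of B-cell precursors (BCP-ALL) that carries the *ETV6-RUNX1* fusion. The 6 REH samples described here are 6 of the 18 in the series, and they were chosen by their labels: 3 had been transfected with *SOX11* siRNA (REH SOX11) and 3 with a non-specific control siRNA (REH CTRL). The other 12 came from 697 and RCH-ACV, other BCP-ALL lines, with 3 samples for each siRNA in each line. All 18 received 300 nM of siRNA by nucleofection, and total RNA was taken 48 h later. The sample titles call the treated group KO, but the treatment lowers a transcript and deletes no gene. REH is a single line, so these 6 samples hold no variation between patients. The design calls the 3 samples per group biological replicates without naming what separated them, and p-values measure the spread between these samples.

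SOX11 is a transcription factor of the SoxC family, with SOX4 and SOX12. In the embryo it acts in neuronal precursors, and healthy B cells hold little of it, while mantle cell lymphoma and some subtypes of BCP-ALL express it. Transfected siRNA, a pair of short RNA strands, guides the cleavage of mRNAs with a matching stretch. Through the first bases of its guide strand it can also lower mRNAs that match only a short word, usually in the 3′ UTR.

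The total count per REH sample lay between 7272980 and 12342472, so that 3 counts, taken as the smallest number that shows a gene, stood for 0.243 to 0.412 CPM (counts scaled to library size after TMM). These floors cover counting error only. The first principal component held 31.0% of the variance and separated the siRNA groups, with control replicate 3 and *SOX11* siRNA replicate 2 at its ends. The defining B-precursor genes *CD79A*, *PAX5*, *DNTT* and *RAG1* were at 723 CPM or more in all 6 samples. *CD34* and *VPREB1*, also markers of this stage, were at or under 0.270 CPM. T-cell markers *CD3D*, *CD3G* and *CD7* and red cell markers *HBB* and *HBA1* were at 0 in every sample. *MPO*, a granule enzyme of myeloid cells, was the myeloid marker that was counted clearly. It stood at 13.2, 15.5 and 13.5 CPM in the controls and at 7.81, 7.87 and 9.03 CPM with *SOX11* siRNA (log2 fold change -0.78, adjusted p = 0.000237). Of 14 myeloid markers 9 were at 0 in all 6 samples. The summed myeloid level was 19.8 to 22.4 CPM in the controls and 14.5 to 15.1 CPM with *SOX11* siRNA, and its part in the other results was not tested. In bulk RNA, fewer cells of a type and less RNA per cell cannot be told apart.

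*SOX11* (NM_003108, chromosome 2 of hg19 from 5832516 to 5841517) was the target of the siRNA. The control samples held 102, 101 and 97.0 CPM, and the *SOX11* siRNA samples held 49.8, 55.9 and 63.7 CPM. The groups did not overlap, and 56.3% of the control level remained (log2 fold change -0.83 with standard error 0.06, adjusted p = 1.41e-08 in edgeR). A two-sided exact permutation test gave p = 0.1, the smallest that 3 samples against 3 allow. *SOX4*, the SoxC relative, stood at 356, 349 and 335 CPM in the controls and at 392, 370 and 424 CPM with *SOX11* siRNA (log2 fold change 0.19, adjusted p = 0.00625). Its call was lost without control replicate 3, where the log2 fold change was 0.17.

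**Figure D1:**
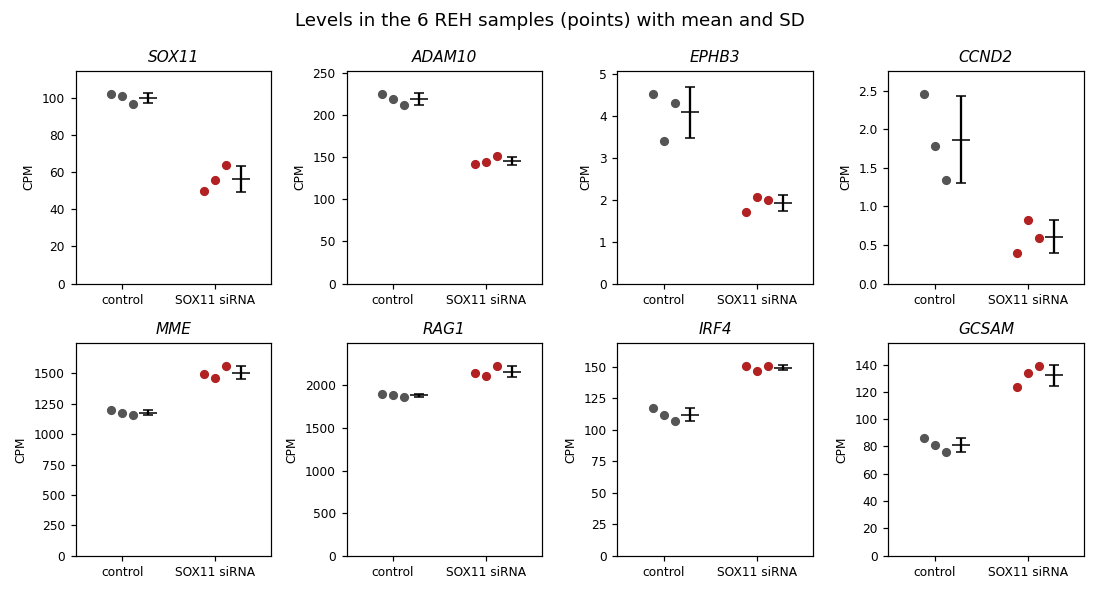
Level (CPM, axes from 0) of 8 genes in the 3 control and 3 *SOX11* siRNA samples of REH, with the mean and SD beside the points. *SOX11*, *ADAM10*, *EPHB3* and *CCND2* are lower in every *SOX11* siRNA sample, and *MME*, *RAG1*, *IRF4* and *GCSAM* are higher in every one.

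At an adjusted p under 0.05 (quasi-likelihood test in edgeR, adjusted after Benjamini and Hochberg), 595 of 12787 tested genes were called, which is 4.65% of all tested genes and the background for the gene lists described here. Of these, 337 (2.64%) were higher with *SOX11* siRNA and 258 (2.02%) were lower. Most changes were small. The median log2 fold change was 0.23 among the higher genes and -0.29 among the lower genes, and 99 genes (0.774% of those tested) passed a log2 fold change of 0.5, with 45 higher and 54 lower. Small changes were called mainly where counts were high. Genes with a mean under 5 CPM were called in 1.20% of 2001 cases, with a median absolute log2 fold change of 0.93. Genes at 50 CPM or more were called in 7.68% of 5101 cases, with a median of 0.20. The 4.65% background is not matched for level, and for lists of mostly highly expressed genes 7.68% is the closer share. The *SOX11* siRNA samples lay wholly above or wholly below the controls for 21.5% of tested genes. Protein-coding genes made up 326 of the higher and 249 of the lower genes, and long non-coding RNAs 6 and 4. The count depended on single libraries. Without control replicate 3 it was 299, without *SOX11* siRNA replicate 1 it was 331, and without *SOX11* siRNA replicate 2 it was 375. In each of the 6 fits that left out 1 sample, 218 of the 595 genes were called, 121 higher and 97 lower.

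**Figure D2:**
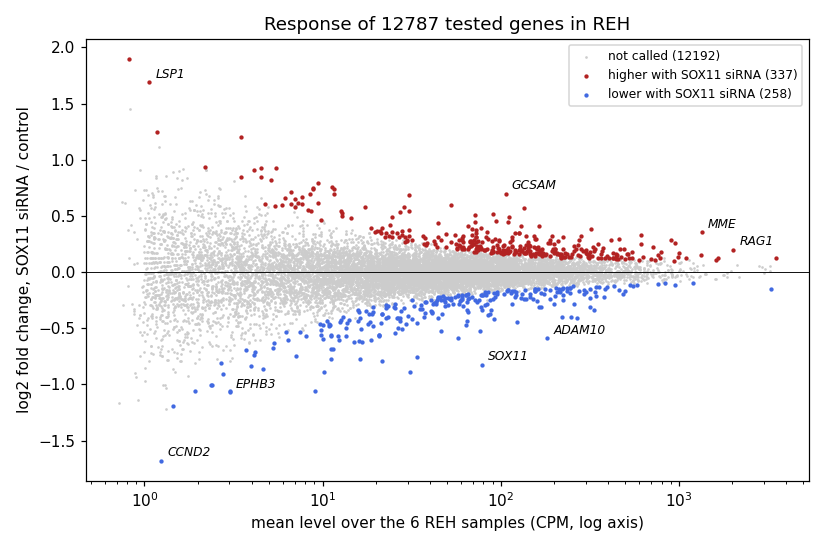
Log2 fold change (*SOX11* siRNA over control) against the mean level over the 6 REH samples (CPM, log axis) for 12787 tested genes, 1 point per gene. The 337 higher and 258 lower genes lie close to 0 at high levels and farther from it at low levels.

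Of the 10 genes with the smallest adjusted p, 6 were lower with *SOX11* siRNA, namely *ADAM10*, *SOX11*, *MN1*, *WBP1L*, *WDTC1* and *MEX3A*. *ADAM10* (chromosome 15 of hg19 from 58881008 to 59041990), a membrane protease that sheds the outer parts of Notch, cadherins and other surface proteins, stood at 226, 219 and 212 CPM in the controls and at 142, 144 and 151 CPM with *SOX11* siRNA (log2 fold change -0.59, standard error 0.04, adjusted p = 4.48e-09). *MN1* (chromosome 22 of hg19 from 28144265 to 28197744), a transcription cofactor known from fusions in myeloid leukemia, stood at 37.0, 40.0 and 43.2 CPM in the controls and at 22.6, 21.7 and 20.0 CPM with *SOX11* siRNA (-0.89, standard error 0.08, adjusted p = 1.79e-07). Both genes had non-overlapping groups and were called in all 6 fits that left out 1 sample.

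The other 4 were higher, namely *GCSAM*, *MME*, *BEST3* and *PALM2AKAP2*. *GCSAM* (chromosome 3 of hg19 from 111839686 to 111852117), a signalling adaptor of germinal centre B cells, stood at 86.5, 81.2 and 75.7 CPM in the controls and at 124, 134 and 139 CPM with *SOX11* siRNA (0.70, standard error 0.05, adjusted p = 1.41e-08). *MME* (chromosome 3 of hg19 from 154741913 to 154901493) encodes CD10, the peptidase by which common BCP-ALL is recognised. It stood at 1199.6, 1173 and 1158 CPM in the controls and at 1496, 1458 and 1561 CPM with *SOX11* siRNA (0.36, standard error 0.03, adjusted p = 5.30e-08). *BEST3*, of the bestrophin chloride channel family, stood at 120, 107 and 98.6 CPM in the controls and at 164, 161 and 162 CPM with *SOX11* siRNA (0.57, standard error 0.05, adjusted p = 1.88e-07).

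Several of the lower genes with the smallest p share a 7-base word in their 3′ UTRs, and 6 of these sites are shown. Each line gives 27 bases of the mRNA sense strand, 5′ to 3′, from the GENCODE 3′ UTR in hg19, with the word in capitals.

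*SOX11* (chromosome 2 from 5834342 to 5834368, plus strand): ataagatgtcGTGACGCaaagaaattg
*ADAM10* (chromosome 15 from 58888235 to 58888261, minus strand): ttctcataatGTGACGCaagccagcaa
*WBP1L* (chromosome 10 from 104575923 to 104575949, plus strand): ggcagtctcaGTGACGCatttcctgtg
*WDTC1* (chromosome 1 from 27634692 to 27634718, plus strand): gagagtgaggGTGACGCaattgattaa
*CANT1* (chromosome 17 from 76988172 to 76988198, minus strand): aacgctgaatGTGACGCatttctgaag
*WDR1* (chromosome 4 from 10076904 to 10076930, minus strand): ctctatttctGTGACGCgcccccatgc

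The word was first picked because genes that carry it fell in these samples, so the counts that follow are a description without a test. It occurs in the 3′ UTR of 201 of 11283 tested genes (1.78%), of 21 of 249 lower genes (8.43%), of 4 of 325 higher genes (1.23%) and of 9 of the 20 lower genes with the smallest adjusted p (45%). The 21 lower genes that carry it had a median log2 fold change of -0.41 in REH against -0.59 in 697 and -0.34 in RCH-ACV. The 228 lower genes that lack it had medians of -0.29, -0.15 and -0.18. These 228 are counted among the 249 lower genes with a 3′ UTR. The 21 and the 228 were both chosen for being lower in REH, so their negative REH medians follow from that choice. *SOX11*, the target, is among the 21. Over all 201 tested carriers the REH median was -0.061, against -0.0031 for tested genes without the word. Among genes not called in REH, the 176 carriers had a median of -0.054, against -0.0040 for those without it. Whether the siRNA acted on the carriers directly was not tested, and the siRNA sequence was not used here. The SOX consensus core AACAAAG was sought on both strands of RefSeq promoter windows, which not every gene had. It was found for 7 of 197 lower genes (3.55%) and 8 of 275 higher genes (2.91%). Of 10019 tested genes with a promoter 306 had it (3.05%), and of all 27305 promoters 5.28%.

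The genes with the largest fold changes were mostly expressed at low levels. Among the lower genes *CCND2*, the D-type cyclin that activates CDK4 and CDK6, stood at 2.47, 1.78 and 1.35 CPM in the controls and at 0.401, 0.828 and 0.596 CPM with *SOX11* siRNA (log2 fold change -1.68, standard error 0.37, adjusted p = 0.00761). It was not called without control replicate 1 or without *SOX11* siRNA replicate 1, where the values were -1.44 in both fits. *DDX60*, an interferon-induced helicase, changed by -0.89. *PEAR1*, *TNFSF9*, *SNAI1*, *TSKU*, *CACNB4* and *CEACAM1* ranged from -1.19 to -0.87, and each lost its call in 1 or more of those fits.

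Among the higher genes *LSP1*, an actin-binding protein of leukocytes, stood at 0.493, 0.567 and 0.405 CPM in the controls and at 2.00, 1.52 and 1.39 CPM with *SOX11* siRNA (log2 fold change 1.69, standard error 0.37, adjusted p = 0.00747). Its call was lost without *SOX11* siRNA replicate 1, where the value was 1.50. *GIMAP8*, a GTPase of lymphocytes, stood at 2.76, 2.35 and 0.944 CPM in the controls and at 5.11, 5.24 and 4.57 CPM with *SOX11* siRNA (1.20, adjusted p = 0.0027). *EIF4E3* (0.93), *HECW1* (0.92), *STAG3* (0.79) and *POU2F2* (0.76) were called in all 6 fits that left out 1 sample. *MPIG6B* (1.25) and *TLE6* (0.93) were called in 0 of those fits, and *LINC03066*, *SPNS3*, *IFNLR1* and *CD82* in 4 or 5.

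Guidance receptors and ligands, the ephrins, semaphorins, plexins and slits through which cells steer each other's movement, held 12 lower genes and 1 higher gene among 31 tested members. The median log2 fold change of the list was -0.19, against -0.0023 over all tested genes. *EPHB3*, a receptor for B-type ephrins, stood at 4.54, 3.40 and 4.32 CPM in the controls and at 1.70, 2.07 and 1.99 CPM with *SOX11* siRNA (-1.07, standard error 0.23, adjusted p = 0.00554). *EFNB1*, one of its ligands, stood at 34.9, 41.0 and 41.4 CPM in the controls and at 27.3, 28.8 and 29.5 CPM with *SOX11* siRNA (-0.45, adjusted p = 0.00074). The semaphorin ligands *SEMA3A* (-1.003) and *SEMA3D* (-0.56) and the semaphorin receptor *PLXNB1* (-0.42) fell as well. *SEMA4D*, the ligand of *PLXNB1* that lymphocytes express, moved the other way, from 108, 105 and 99.1 to 134, 120 and 127 CPM (0.29, adjusted p = 0.000702). DESeq2 called 7 of the 12 lower members, and *SEMA3A* and *SEMA3D* were called in 3 and 4 of the 6 fits that left out 1 sample.

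Among 19 tested genes of developing neurons, 7 were called, all of them lower, and the median log2 fold change was -0.12. These included *MEX3A*, an RNA-binding protein, which stood at 87.4, 90.1 and 94.7 CPM in the controls and at 62.8, 63.3 and 62.4 CPM with *SOX11* siRNA (-0.53, standard error 0.05, adjusted p = 5.02e-07). *NRN1*, a surface protein that promotes neurite growth, stood at 191, 183 and 183 CPM in the controls and at 147, 151 and 151 CPM with *SOX11* siRNA (-0.31, adjusted p = 2.07e-05). *SYT11*, a synaptotagmin of vesicle membranes, changed by -0.71 and was called in 2 of the 6 fits that left out 1 sample. *NRN1* also belongs to a hand-written list of genes known for high levels in *ETV6-RUNX1* leukemia, in which 6 of 15 tested genes were lower and 1 higher. There *WBP1L* (-0.40), *IGF2BP3* (-0.21) and *HAP1* (-0.18) fell, and *RAG1* rose. *IGF2BP3* and *HAP1* were called in 2 and 4 of the 6 fits that left out 1 sample. Without control replicate 3 the number of lower genes in that list was 3. The list median was -0.12 in REH, -0.18 in 697 and -0.21 in RCH-ACV, so a negative median was not particular to REH. The medians of the other lines include members that were barely expressed there. In the controls *NRN1* averaged 0 CPM in 697 and 0.116 CPM in RCH-ACV. *HAP1* averaged 2.41 CPM in 697 and *IGF2BP3* 2.19 CPM in RCH-ACV, while *WBP1L* averaged 39.4 and 40.8 CPM in 697 and RCH-ACV.

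Of 11 tested collagens and laminins 3 were called (*COL1A1*, *COL27A1* and *COL5A1*), all lower, with 10 of 11 log2 fold changes negative. *COL27A1* stood at 93.0, 98.3 and 103 CPM in the controls and at 78.0, 77.7 and 77.3 CPM with *SOX11* siRNA (-0.33, adjusted p = 0.000177), while *COL1A1* and *COL5A1* were called in 1 and 2 of the 6 fits that left out 1 sample. Of 19 ADAM and matrix metalloprotease genes 4 were called, all lower, *ADAM10* with *ADAMTS7* (-0.44), *MMP17* (-0.42) and *MMP15* (-0.29). *ADAMTS7*, *MMP17* and *MMP15* were called in 4, 2 and 3 of those 6 fits.

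**Figure D3:**
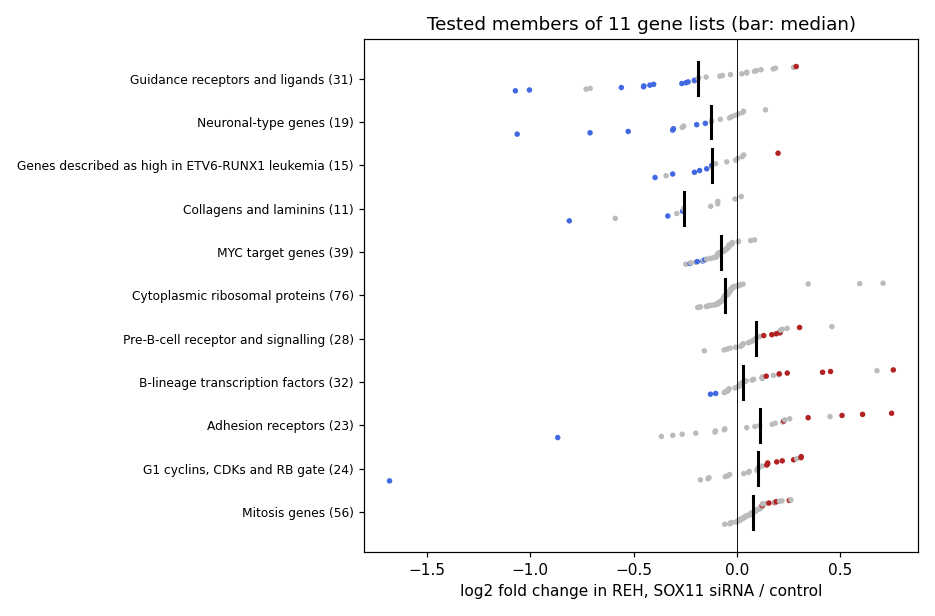
Log2 fold change in REH (*SOX11* siRNA over control) of every tested member of 11 gene lists, 1 point per gene, with the number of tested members in parentheses and a bar at the median. Blue points are called lower, red points called higher and grey points not called. The guidance list has 12 blue points, and the ribosomal protein list has 0 called points with its median below 0.

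Among genes of B-cell signalling and of the B-precursor stage more were called higher than lower. Of 28 tested genes of the pre-B-cell receptor and its signalling 7 were called, all higher, with 23 log2 fold changes positive and a median of 0.09. The signalling kinases *PIK3CD* (0.21) and *PRKCB* (0.21) were called in all 6 fits that left out 1 sample. *PRKCB*, the protein kinase C of the B-cell receptor pathway, stood at 435, 442 and 424 CPM in the controls and at 497, 497 and 510 CPM with *SOX11* siRNA (adjusted p = 0.000227). The negative regulators *PTPN6* (0.30), a phosphatase, and *CSK* (0.21), the kinase that inhibits Src-family kinases, were also higher, each in 2 of those 6 fits. Without *SOX11* siRNA replicate 1 the list held 3 higher genes, and without control replicate 3 or *SOX11* siRNA replicate 2 it held 4.

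Of 32 tested transcription factors of the B lineage 6 were higher and 2 lower. *IRF4*, which drives light chain rearrangement and later plasma cell formation, stood at 117, 112 and 107 CPM in the controls and at 151, 147 and 151 CPM with *SOX11* siRNA (log2 fold change 0.41, standard error 0.04, adjusted p = 1.67e-06). *POU2F2* (OCT2, 0.76), *IKZF2* (HELIOS, 0.45) and *BACH2* (0.24) rose with it. The early B-lineage factor *EBF1* fell by 0.13 on the log2 scale and *MEF2C* fell by 0.10 on that scale, and they were called in 1 and 0 of the 6 fits that left out 1 sample.

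*RAG1*, which cuts DNA in V(D)J recombination, stood at 1895, 1893 and 1864 CPM in the controls and at 2143, 2109.9 and 2231 CPM with *SOX11* siRNA (0.20, standard error 0.03, adjusted p = 5.64e-05). *LIG4*, the ligase that rejoins the cut ends, stood at 147, 135 and 139 CPM in the controls and at 183, 188 and 189 CPM with *SOX11* siRNA (0.41, standard error 0.04, adjusted p = 1.02e-06). They were the 2 called genes of 12 tested V(D)J recombination genes. Of 19 B-precursor surface markers 4 were called, all higher. Beside *MME* these were *CD38* (0.29), *CD52* (0.14) and *CD24* (0.13). *CD52* was called in 2 of the 6 fits that left out 1 sample.

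Among surface receptors that bind cells and matrix more genes were called higher than lower. Of 23 tested adhesion receptors 5 were higher and 1 (*CEACAM1*) was lower. *ITGB1*, the beta chain of the integrins that bind fibronectin and VCAM1, stood at 63.7, 63.9 and 64.9 CPM in the controls and at 80.2, 80.2 and 83.5 CPM with *SOX11* siRNA (0.34, standard error 0.05, adjusted p = 0.000148). *CXCR4*, the receptor for the bone marrow chemokine CXCL12, stood at 488, 445 and 449 CPM in the controls and at 528, 512 and 548 CPM with *SOX11* siRNA (0.20, adjusted p = 0.0015). Of 58 actin-remodelling genes 4 were higher and 5 lower. Ezrin (*EZR*, 0.19) rose, and the bundling protein fascin (*FSCN1*, -0.38), the formin *FMNL2* (-0.31) and *WDR1* (-0.34), which helps cofilin take filaments apart, fell. *GIMAP4* (0.54) and *GIMAP8* were called higher among 5 tested GIMAP genes.

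Cell cycle genes were called higher more often than lower, by small amounts. Of 24 genes of the G1 phase, D cyclins, CDKs and the RB gate 8 were higher and 1 (*CCND2*) was lower. *E2F2*, a transcription factor that RB holds back, stood at 195, 203 and 203 CPM in the controls and at 247, 252 and 247 CPM with *SOX11* siRNA (0.31, standard error 0.04, adjusted p = 7.47e-06). *E2F8* (0.31) and *E2F7* (0.27), repressors of the same family, and *CDKN2C* (0.22), an inhibitor of CDK4 and CDK6, rose too. Of 57 DNA replication genes 8 were higher and 1 lower. *ASF1B*, a histone chaperone, stood at 177, 172 and 166 CPM in the controls and at 220, 218 and 206 CPM with *SOX11* siRNA (0.32, adjusted p = 1.82e-05), and *TK1* (0.24), *FEN1* (0.20) and *DNMT1* (0.18) rose. *NASP*, another histone chaperone, was the lower gene (-0.10) and was called in 0 of the 6 fits that left out 1 sample. Of 56 mitosis genes 7 were called, all higher, with 50 log2 fold changes positive and a median of 0.08. The called shares were 37.5% in the G1 list, 15.8% in the replication list and 12.5% in the mitosis list. Over all tested genes the share was 4.65%, and over genes at 50 CPM or more it was 7.68%. The proliferation marker *MKI67* stood at 529, 607 and 547 CPM in the controls and at 709, 652 and 645 CPM with *SOX11* siRNA (0.25, adjusted p = 0.000583). These counts fell without single libraries. Without control replicate 3 the G1, replication and mitosis lists held 4, 4 and 3 higher genes, without *SOX11* siRNA replicate 1 they held 5, 5 and 2, and without *SOX11* siRNA replicate 2 they held 5, 4 and 3. The mitosis list held 3 higher genes at an adjusted p under 0.01 and 0 in the fit over the 18 samples.

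Genes of ribosome production and growth had mostly small negative log2 fold changes, and few were called. *ODC1* (-0.23), the first enzyme of polyamine synthesis, *NME1* (-0.19), *GNL3* (-0.17) and *NOLC1* (-0.16) were the called genes of 39 MYC targets, of which 35 had a negative log2 fold change. *GNL3* was called in 0 of the 6 fits that left out 1 sample. The median of the target list was -0.08, and *MYC* itself was lower (log2 fold change -0.25). Of 76 cytoplasmic ribosomal protein genes 0 were called by edgeR's quasi-likelihood test or by DESeq2 (13 at an unadjusted p under 0.05), while 67 had a negative log2 fold change with a median of -0.06. *RPS6*, which had the highest level of that list, was at -0.06 on the log2 scale with an adjusted p of 0.238. Of 65 ribosome biogenesis genes 2 were lower (*GAR1* and *WDR12*) with 55 negative, and of 74 respiratory chain subunits 1 (*NDUFS5*) was lower with 58 negative. *NDUFS5* was called in 0, *GAR1* in 2 and *WDR12* in 3 of those 6 fits.

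In glycolysis 2 of 23 tested genes were higher and 4 lower. *PFKL* (0.25), the liver form of phosphofructokinase, and *ENO2* (0.26) rose, while *PFKM* (-0.17), the muscle form of phosphofructokinase, the lactate carrier *SLC16A1* (-0.21), *PGK1* (-0.12) and *LDHB* (-0.10) fell. *ENO2* and *PGK1* were called in 2 and *LDHB* in 1 of the 6 fits that left out 1 sample. Of 27 tested p53 target genes 2 were higher and 1 lower, with 18 negative log2 fold changes and a median of -0.07. *MDM2*, which marks p53 for breakdown and is itself a p53 target, rose by 0.26 on the log2 scale (adjusted p = 5.64e-05). *BTG2* (0.27) rose too and was called in 3 of the 6 fits that left out 1 sample. The death receptor *TNFRSF10B* fell (-0.27). *EDEM1*, which clears misfolded glycoproteins from the endoplasmic reticulum, rose (0.28, adjusted p = 1.67e-05). The chaperone *HSP90B1* fell (-0.12) and was called in 2 of the 6 fits that left out 1 sample. Of the ATF4 amino-acid stress list (32 tested), the BCL2 family (15 tested) and the glucocorticoid receptor list (14 tested) 0 genes were called by edgeR or DESeq2, with 3, 2 and 1 at an unadjusted p under 0.05. The value for *BCL2* itself was -0.00011 with a standard error of 0.04.

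The REH response was then compared with that of the other lines. Of the 258 genes lower in REH, 79.1% had a negative log2 fold change in 697 and 82.9% in RCH-ACV. Of the 337 higher genes, 63.5% had a positive one in 697 and 67.7% in RCH-ACV. Over all genes with a value, 54.2% had the same sign in REH and 697, and 56.7% in REH and RCH-ACV. The difference itself (effect in REH minus the mean effect in 697 and RCH-ACV, in 1 fit over the 18 samples) passed an adjusted p under 0.05 for 71 of 14026 genes (0.506%), of which 58 (0.414%) were more positive in REH and 13 (0.0927%) more negative. Of the 595 genes called in REH, 39 were among them, 29 higher and 10 lower in REH. The 10 lower include *RHOBTB1* and the transcripts NR_024554 and NR_024555, which have no symbol and hold nearly the same reads. So 1 locus is counted repeatedly in the 10, and likewise in the 13, the 71 and the 595. The count of 71 fell to between 28 and 56 when 1 REH sample was left out, and the lowest was without *SOX11* siRNA replicate 3. It was 34 without control replicate 2, 36 without *SOX11* siRNA replicate 1, 37 without control replicate 3 and 47 without control replicate 1.

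**Figure D4:**
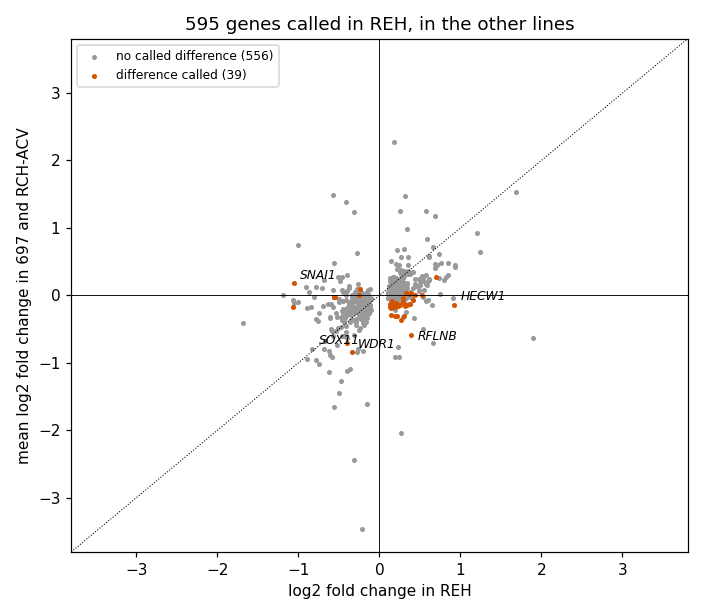
Log2 fold change in REH against the mean log2 fold change in 697 and RCH-ACV for the 595 genes called in REH, with the diagonal of equal effects dotted. The 39 genes whose difference was called are orange, and most of them are higher in REH and at or below 0 on the vertical axis. Of the 20 genes past 1 or -1 on that axis, 19 averaged under 1 CPM in 697 or RCH-ACV.

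Genes of B cells, adhesion and the cell cycle that rose in REH were among those with a called difference. The *IRF4* effect was 0.41 in REH against -0.12 in 697 and -0.02 in RCH-ACV (difference 0.48, standard error 0.07, adjusted p = 0.00054). *CD38* had effects of 0.29 in REH against -0.18 in 697 and -0.02 in RCH-ACV (difference 0.38, adjusted p = 0.00378). *RAG1* had effects of 0.20 in REH against -0.41 in 697 and -0.21 in RCH-ACV (difference 0.50, adjusted p = 0.0187). *ITGB1* had effects of 0.34 in REH against -0.08 in 697 and -0.21 in RCH-ACV (difference 0.48, standard error 0.06, adjusted p = 0.000209). *E2F2* had effects of 0.31 in REH against -0.12 in 697 and -0.19 in RCH-ACV (difference 0.46, adjusted p = 0.00121), and its partner *TFDP2* had 0.15, -0.26 and -0.32 (difference 0.43, adjusted p = 0.000343). *GCSAM* had effects of 0.70 in REH against 0.17 in 697 and 0.39 in RCH-ACV (difference 0.41, adjusted p = 0.0188). *MME* (0.36, 0.35 and 0.55) and *LIG4* (0.41, 0.32 and 0.37) had differences of -0.10 and 0.06 with adjusted p of 0.877 and 0.921, so no difference was detected for them. The differences of *RAG1* and *GCSAM* were called in 1 and 2 of the 6 fits that left out 1 REH sample.

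In the other direction *SNAI1*, a repressor of epithelial genes, had effects of -1.06 in REH against 0.33 in 697 and 0.03 in RCH-ACV (difference -1.24, adjusted p = 0.0352). *GYPC*, a membrane glycoprotein that anchors the red cell skeleton, had effects of -0.54 in REH against 0.04 in 697 and -0.08 in RCH-ACV (difference -0.53, adjusted p = 0.00264). *WDR1* and *WBP1L*, which carry the 3′ UTR word, fell in REH by less than in the other lines. *WDR1* had effects of -0.34 in REH against -1.04 in 697 and -0.65 in RCH-ACV (difference 0.50, adjusted p = 4.91e-05), and *WBP1L* had -0.40, -0.75 and -0.67 (difference 0.31, adjusted p = 0.0168). *SOX11* itself had effects of -0.83 in REH against -0.91 in 697 and -0.67 in RCH-ACV. The difference of REH from the mean of the other lines was -0.04 (standard error 0.09, adjusted p = 0.977), so none was detected. The other lines lay on either side of REH, and whether the knockdown was equally deep in each line was not tested. The differences of *SNAI1* and *WBP1L* were called in 2 and 3 of the 6 fits that left out 1 REH sample.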

How the data were processed

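RNA was sequenced from 18 samples, of which the 6 of REH are described, from stranded mRNA libraries. The authors aligned the reads with STAR (hg19), used HOMER to count reads per RefSeq transcript, and deposited these raw counts in 1 table for each line. The submitters' processing notes also name bcl2fastq and FastQC 0.10.1, and give STAR as 2.5.3a. The strand setting of the counting is not given in the sources used here, so genes that overlap on opposite strands (*LRIG1*, *STAG3*, *PRC1*, *LCP1*, *IGF2BP3* among those named) may share reads. No other samples are in the tables (0 such columns). Symbols were found for 98.0% of transcripts. Each gene is represented by its transcript with most counts summed over all 18 samples, which left 26941 genes, unmatched transcripts included.

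REH was fitted alone with edgeR 4.0.16 in R 4.3.3 (TMM, filterByExpr by group, quasi-likelihood F-test, two-sided), and genes with a Benjamini-Hochberg adjusted p under 0.05 were called. Printed standard errors are the log2 fold change divided by the square root of F. Effects in 697 and RCH-ACV and the difference of REH from their mean came from 1 fit over the 18 samples with 6 groups. The members and the 51 hand-written gene lists were chosen with earlier results of these data known. Lists are described by counts and medians, and no list was tested. The genes named were the SoxC genes, the 12 highest and 12 lowest called genes that averaged 1 CPM or more and did not overlap between groups, the 10 with the smallest p, up to 4 called genes per list and direction (2 where none was called), the 8 with the smallest p for the difference in each direction, and the cell type markers. *SOX12* is not described, since its sign changes with the fit. Genes of the Y chromosome were left out. A few other items are not reported here. Positions and 3′ UTRs (the longest for each gene) are from GENCODE lifted to hg19, and promoters are from RefSeq on another build, used without coordinates. Other settings tried were RLE scaling, scaling by library size, 2 other filters, DESeq2 1.42.0, a replicate block, 1 fit over 18 samples, an adjusted p under 0.01, the transcript with the highest REH total and leaving out each REH sample. The edgeR legacy method was chosen after seeing the data. The fits were tested on simulated data. Same-numbered samples of the groups had deviations from their group means that correlated at -0.056, 0.00045 and -0.029 across genes, so they were not treated as pairs.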

Additional observations from a re-analysis of the deposited data

Results flagged for a closer look

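Each result here is a gene called in REH whose log2 effect in REH minus the mean effect in 697 and RCH-ACV passed an adjusted p under 0.05 (edgeR's quasi-likelihood test, 1 fit over the 18 samples). Effects more positive in REH were those of *HECW1* (1.05), *RFLNB* (0.97), *LRIG1* (0.62), *TCL1A* (0.52), *RAG1* (0.50), *WDR1* (0.50), *ITGB1* (0.48), *IRF4* (0.48), *E2F2* (0.46), *TFDP2* (0.43), *GCSAM* (0.41), *PDLIM1* (0.40), *CD38* (0.38), *PIK3CD* (0.32), *SEMA4D* (0.31), *WBP1L* (0.31), *CD24* (0.30) and *IFI16* (0.29). Effects more negative in REH were those of *SNAI1* (-1.24), *RHOBTB1* (-0.55), *GYPC* (-0.53), *GAR1* (-0.34) and *MYC* (-0.26). Of these 23 differences 12 were called in all 6 fits that left out 1 REH sample. Between 3 and 11 lost their call in a single such fit, with 11 lost without *SOX11* siRNA replicate 3, 10 without control replicate 2 and 8 without *SOX11* siRNA replicate 1. With the replicate block 7 were lost. *CD24* and *GAR1* were called in 0 of the 6 fits, *RAG1* and *SEMA4D* in 1, *HECW1*, *GCSAM*, *RHOBTB1* and *SNAI1* in 2, *MYC* and *WBP1L* in 3 and *IFI16* in 5. The counts of *RHOBTB1* are also those of transcripts without a symbol that hold the same reads, and exons of *LRIG1* overlap *SLC25A26* on the other strand. The cause of these differences was not tested.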

How the results depend on the processing

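With 3 samples per group and 7272980 to 12342472 counts per sample, small changes of weakly expressed genes could not be detected. No log2 fold change of the 156 named called genes changed sign under any alternative fit that gave the gene an adjusted p. DESeq2 gave none for some of them. No list median looked at changed sign. Of the 156 genes 51 lost their call with DESeq2 and 71 in 1 fit over 18 samples. DESeq2 called 316 genes (195 higher, 121 lower, 52 past a log2 fold change of 0.5), all 316 among the 595, and gave no adjusted p for 10 of the 595. An adjusted p under 0.01 left 275 (158 higher, 117 lower, 64 past 0.5), and 1 fit over 18 samples left 242 (118 higher, 124 lower). RLE size factors gave 606, library size alone 575, no filter 625, CPM above 1 in 3 samples 595, the REH transcript 596 and the legacy method 594.

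With the replicate number as a block 479 genes were called, of which 462 were among the 595. The difference between lines then gave 37 genes in place of 71, and 5 DNA replication genes were higher in place of 8. Of the 156 named genes 26 lost their call under the block. The samples share only a number.

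In the lists DESeq2 left 7 guidance genes lower and 5 G1 genes higher. An adjusted p under 0.01 left 4 pre-B-cell receptor, 5 G1, 3 mitosis and 4 replication genes higher. The fit over 18 samples left 5 guidance and 2 *ETV6-RUNX1* list genes lower, and 2 pre-B-cell receptor, 3 B-lineage factor, 3 adhesion, 3 G1, 0 mitosis and 4 replication genes higher. The cause was not tested.

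In the 6 fits without 1 REH sample the count lay between 299 and 521 (161 to 306 higher, 138 to 223 lower, 72 to 94 past 0.5), the difference between lines between 28 and 56, and *SOX11* between -0.93 and -0.74 on the log2 scale. The lower genes numbered 8 to 11 in the guidance, 5 to 8 in the neuronal and 3 to 6 in the *ETV6-RUNX1* list. The higher genes numbered 3 to 7 in the pre-B-cell receptor, 5 to 6 in the B-lineage factor, 4 to 5 in the adhesion, 4 to 8 in the G1, 2 to 7 in the mitosis and 4 to 12 in the replication list. Of the 156 named genes 31 to 69 lost their call, most without control replicate 3.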

Other observations

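Genes of other groups were also called in REH. *SPRY2*, an inhibitor of receptor kinase signalling, was lower (log2 fold change -0.39), and the kinase *JAK1* was the 1 called gene of 28 tested cytokine receptor and JAK-STAT genes (0.21). Of 18 tested HLA class II genes and their regulators 2 were called higher, *HLA-DOA* (0.14) and *RFX5* (0.13), and 1 lower, the protease *CTSH* (-0.84). They were called in 2, 1 and 4 of the 6 fits that left out 1 sample. Of 18 tested genes of HLA class I and peptide loading 1 was called, *HLA-E* (0.12), and in 0 of those fits. Of 36 tested ion channels and transporters 3 were called higher and 2 lower (13.9%, against 4.65% of all tested genes). The higher genes were *STIM1* (0.35), *ORAI2* (0.23) and *ITPR2* (0.32), called in 5, 4 and 2 of the 6 fits that left out 1 sample. The potassium channel *KCNN4*, which lymphocytes use during calcium signals, stood at 17.1, 16.5 and 14.7 CPM in the controls and at 10.7, 10.9 and 11.1 CPM with *SOX11* siRNA (-0.57, adjusted p = 0.00176). Of 49 tested chromatin regulators 4 were called higher, among them *NSD2* (0.14), *SUZ12* (0.14) and *JARID2* (0.19), and 2 lower, *HDAC2* (-0.16) and *KDM1A* (-0.15). *SUZ12* and *JARID2* were each called in 1 of the 6 fits that left out 1 sample, *NSD2* and *KDM1A* in 3 and *HDAC2* in 4. *LITAF* (0.31), *TGFBR2* (0.24) and *TCF7* (0.69) were higher, and *LTB* (-0.37) and *TNFAIP2* (-0.57) lower. *TCF7* was called in 3 of those 6 fits.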
